A study of Mus musculus with 16 samples.

Results

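The 8 arrays described here compare the uterus of adult mice that received genistein as newborns with the uterus of mice that received the carrier, both taken after dexamethasone in adulthood. They are the 4 arrays labelled genistein dexamethasone and the 4 labelled control dexamethasone, out of 16 arrays in the study, and every gene tested on them is a member. Genistein is a soy isoflavone that binds estrogen receptors, and dexamethasone is a synthetic glucocorticoid. Pups were given 50 mg/kg genistein in corn oil on postnatal days 1 to 5, and control pups were given 20 µl of corn oil alone, although the sample labels of the controls read saline. All mice of all groups were adrenalectomized and ovariectomized when 6 weeks old. The mice of these 8 arrays were injected intraperitoneally, when 8 weeks old, with 1 mg/kg dexamethasone, and the whole uterus was collected 4 hours later. The other 8 arrays carry the same neonatal treatments followed by 100 µl of saline as vehicle, with 4 arrays for each. The labels name no individual animals, so p-values here measure the spread between these arrays, which may be technical in part.

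Glucocorticoids act through the glucocorticoid receptor, a transcription factor that moves to the nucleus when it binds hormone and raises or lowers the transcription of its target genes within hours. In the uterus the glucocorticoid and estrogen pathways meet on common genes, and dexamethasone is known to oppose some of the growth responses to estrogen. Estrogenic compounds given to newborn rodents are known to alter how the reproductive tract develops and how it responds to hormones later.

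Signal is given as log2 of the background-subtracted spot intensity minus the 75th percentile of its array, called scaled log2 signal, so that a value of 0 is the brightness of that percentile. Before scaling, the 75th percentile lay between 1987 and 2719 intensity units on the control arrays and between 1321 and 1803 on the genistein arrays, so every control array was the brighter, and its part in the results was not tested. The share of spots well above background overlapped, from 73.0% to 77.2% on the control arrays and from 74.9% to 79.4% on the genistein arrays. Over all genes tested, pairs of arrays within a group correlated at 0.968 to 0.984 and pairs across the groups at 0.944 to 0.967, where the genes are not independent replicates. The first principal component held 44.2% of the variance and placed all 4 control arrays on one side and all 4 genistein arrays on the other. The sample labels name no slide, and slides were told apart by the barcode of each scan. On that reading the arrays lay on several slides, and slides 3 and 4 each held 1 array of both groups. The other control arrays, 2 and 4, lay on slide 1 and the other genistein arrays, 1 and 3, on slide 2, so for these slide and group cannot be told apart. Whole-tissue RNA does not tell fewer cells of a type from less RNA per cell.

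Neonatal genistein went with a broad difference under dexamethasone. Of 24651 genes tested, 5654 (22.9%) passed limma at an adjusted p under 0.05, 4078 of them (16.5%) higher after genistein and 1576 (6.39%) lower. Most of that excess of higher genes lay at low signal. In the dimmest of 5 equal classes of signal the median log2 difference was 0.71, with 1165 genes higher and 150 lower, whereas in the brightest class it was 0.07, with 610 higher and 359 lower. The account below therefore keeps to 12323 well-detected genes, those with a mean signal over the 8 arrays at or above the median of all genes tested, of which 12308 were above background on all 8. Among the well-detected genes 2621 (21.3%) passed, 1582 of them (12.8%) higher and 1039 (8.43%) lower, with a median log2 difference of 0.04 over all of them. More than 2-fold differences were called for 160 higher and 231 lower genes. The 4 control and 4 genistein arrays did not overlap for 3569 well-detected genes (29%), 2400 of which (19.5%) also passed.

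The direction of the calls depended on how arrays were scaled. Over all genes 72.1% of the calls were higher after genistein with the 75th percentile, 55.4% with quantile normalization and 52.8% with cyclic loess, and the median log2 difference of all genes moved from 0.12 to 0.03 and 0.01. Among well-detected genes the corresponding shares were 60.4%, 58% and 52.4%. Counts also rested on single arrays: the 2621 well-detected calls became 1398 without control array 3, 1668 without control array 4 and 1402 without genistein array 3. With slide as a fixed term the calls over all genes were 6818, and the median log2 difference of all genes tested was 0.05 within slide 3 and 0.07 within slide 4.

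**Figure D1:**
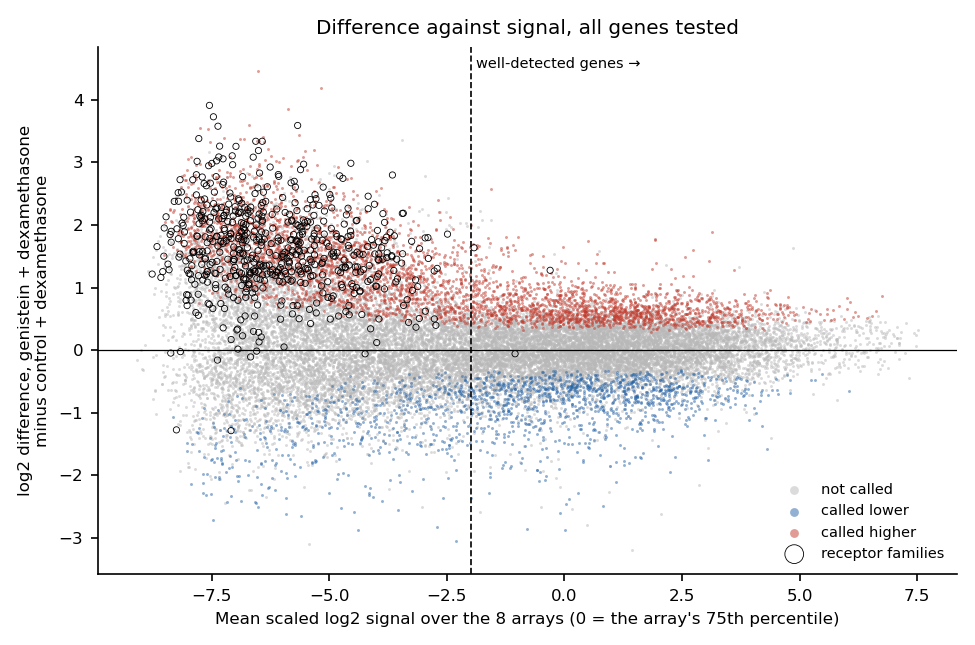
Log2 difference between genistein dexamethasone and control dexamethasone arrays (vertical axis) against the mean scaled log2 signal over the 8 arrays (horizontal axis) for 24651 genes, with genes called higher in red, genes called lower in blue and odorant, vomeronasal, taste and trace amine receptor genes circled. The circled genes lie almost all to the left of the dashed line that bounds the well-detected genes, and above 0.

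The dim receptor genes, which code for odorant, vomeronasal, taste and trace amine receptors of sensory cells, were set apart for this reason. Of 562 measured, 559 were below the bound for well-detected genes. By limma 238 of these were higher and 0 lower, with 0 lower also at an unadjusted p under 0.05, and their median log2 difference was 1.57. Their probes were above background on a mean of 2.02 of 4 control arrays and 3.29 of 4 genistein arrays, and 148 of them on no control array. The detection filter counted arrays of all groups together, so these 148 were kept through other arrays, which include the genistein arrays compared here. Such a filter can favour genes that read higher after genistein, and its part in the split of 238 higher and 0 lower was not tested. In the dimmest class of all genes the split of 1165 higher and 150 lower became 521 higher and 518 lower with quantile normalization and 552 higher and 629 lower with cyclic loess. The counts for the receptor genes themselves were 142 higher and 1 lower with quantile normalization and 154 higher and 1 lower with cyclic loess.

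The well-detected genes with the largest rises and no overlap had varied functions. Fbxo2, a ubiquitin ligase subunit that recognises glycoproteins, read 0.59, 1.58, 0.86 and 1.17 on control arrays 1 to 4 and 2.74, 2.69, 2.78 and 3.03 on genistein arrays 1 to 4. All 4 genistein arrays lay above all control arrays, by a log2 difference of 1.76 ± 0.29 (SE, n = 4 and 4; limma adjusted p = 0.00358). A further pair of Fbxo2 probes also passed, at 1.36 and 0.64. Ngfr, the low-affinity receptor for neurotrophins, read 0.39, -0.84 and -1.04 on control arrays 1 to 3, close to 0 on control array 4, and 1.77, 1.36, 1.52 and 0.84 on the genistein arrays. The groups did not overlap, and the log2 difference was 1.74 ± 0.35 (SE; limma adjusted p = 0.00645), with 2.15 on its other probe. Khsrp, which binds AU-rich RNA and speeds its decay, rose by 1.78 ± 0.30 (SE; limma adjusted p = 0.00361), and Foxh1, a transcription factor that partners SMAD proteins, by 1.65 ± 0.28 (SE; limma adjusted p = 0.00371). Pth2, a neuropeptide, rose by 1.81, Samd1, which binds unmethylated CpG DNA, by 1.69, and Nrxn2, a synaptic adhesion protein, by 1.53. The other probe of Khsrp gave 0.22 and that of Nrxn2 0.30, and neither passed. The largest rise was that of Pidd1, a p53-induced scaffold protein for caspase-2, at 2.57 ± 0.56 (SE; limma adjusted p = 0.00868), but 2 dimmer probes of Pidd1 gave 0.26 and 0.03 and did not pass.

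Among the largest falls of named, well-detected genes whose groups did not overlap was Zfp345, a zinc finger protein, which read -0.34, -1.02, -0.42 and -0.52 on the control arrays and -2.86, -2.06, -2.88 and -2.64 on the genistein arrays. Every genistein array was lower than every control array, and the log2 difference was -2.03 ± 0.35 (SE; limma adjusted p = 0.00382), with -2.07 on its other probe, which also passed. Pex14, part of the import machinery of peroxisomes, read 2.34, 2.44, 2.55 and 2.60 on the control arrays and 1.18, 0.39, 0.66 and 0.80 on the genistein arrays. The groups were again separate, with a log2 difference of -1.73 ± 0.32 (SE; limma adjusted p = 0.00462). Zfp936, another zinc finger protein, differed by -1.72 and Dnal1, a dynein light chain, by -1.96. Aff4, a scaffold of the super elongation complex, had the lowest value of these at -2.39 ± 0.55 (SE; limma adjusted p = 0.0106), with control arrays at 1.20 to 1.44 and genistein arrays at -0.43, -0.64, -2.79 and -0.49. Genistein array 3 stood far below the other Aff4 values, and the 3 other Aff4 probes gave -0.47, -0.30 and 0.23, of which none passed. Gse1, a coiled-coil protein found with histone deacetylase complexes, differed by -1.85 on a bright probe and by 0.52, not passing, on a dim one.

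Whether steroid signalling itself differed was read from its receptors and enzymes. The glucocorticoid receptor gene Nr3c1 read 1.58, 1.44, 1.36 and 1.37 on the control arrays and 1.23, 1.10, 1.02 and 1.04 on the genistein arrays. All genistein values lay below all control values, but the log2 difference of -0.34 ± 0.13 (SE; limma adjusted p = 0.0667) did not pass, and 3 dimmer Nr3c1 probes gave 0.44, -0.32 and 0.26. It passed with the replicate block (limma adjusted p = 0.037), median scaling (0.0496), a variance trend (0.0459) and array weights (0.012), and the mean of its probes was 0.01. Esr1, estrogen receptor alpha, differed by -0.76 ± 0.30 (SE; limma adjusted p = 0.0776) with overlapping groups and did not pass. It did pass with slide as a fixed term, at -1.15, and with array weights, at -0.66. Pgr, the progesterone receptor, differed by 0.10 with a 95% interval from -0.57 to 0.76. Of the enzymes that interconvert active and inactive glucocorticoid, Hsd11b1, which activates it, differed by 0.22 with an interval from -0.33 to 0.77, and Hsd11b2, which inactivates it, by 0.81 ± 0.29 (SE; limma adjusted p = 0.0595). Hsd11b2 passed without control array 1, at 1.06, with array weights, at 0.88, and with a variance trend, at 0.81 (limma adjusted p = 0.0496). Its difference was 0.35 without control arrays 2 and 3. In the list of steroid receptors and metabolism 1 of 32 well-detected genes rose and 2 fell, 9.38% against the background of 21.3%. Hsd17b10, a mitochondrial hydroxysteroid dehydrogenase, rose by 0.53 ± 0.13 (SE; limma adjusted p = 0.0143). Srd5a1, which reduces testosterone and other steroids, read 0.92, 1.08, 1.55 and 2.27 on the control arrays and 0.55, 0.20, 0.64 and 0.72 on the genistein arrays, a difference of -0.93 ± 0.25 (SE; limma adjusted p = 0.0187) that did not pass without genistein array 2, at -0.82.

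The classical glucocorticoid target genes were high in both groups. Tsc22d3, the leucine zipper protein GILZ, read 4.97, 5.54, 5.00 and 5.00 on the control arrays and 4.82, 5.17, 4.71 and 4.86 on the genistein arrays, and its level on the vehicle arrays was 2.71 ± 0.39 (SD, n = 4) in controls and 2.49 ± 0.33 (SD, n = 4) after genistein. The groups overlapped under dexamethasone, with a difference of -0.23 and a 95% interval from -0.70 to 0.23, and the difference was -0.10 without control array 2. Fkbp5, a co-chaperone that restrains the glucocorticoid receptor, read 1.25, 1.45, 0.86 and 0.69 on the control arrays and -0.05, 1.14, 0.54 and 0.21 on the genistein arrays. These groups overlapped too, with a difference of -0.60 ± 0.38 (SE; limma adjusted p = 0.256). Per1, a clock gene, differed by 0.29 ± 0.21 (SE; limma adjusted p = 0.336), and by 0.17 without control array 3 and 0.45 without control array 2. Sgk1, a kinase that regulates ion transport, read 3.52, 3.53, 3.69 and 3.19 on the control arrays and 2.56, 3.25, 3.27 and 3.10 on the genistein arrays. Its difference of -0.44 ± 0.21 (SE; limma adjusted p = 0.132) did not pass and was -0.28 without genistein array 1.

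Of 38 well-detected genes in the list of glucocorticoid-induced genes 2 rose and 2 fell, 10.5% against the background of 21.3%, and the median log2 difference was -0.17, with 24 members below 0, and 0.01 without control arrays 2 and 3. The clearest was Nfil3, a transcription factor that represses clock and immune genes. Nfil3 read 3.63, 4.08, 3.92 and 3.45 on the control arrays and 2.67, 2.56, 2.82 and 2.55 on the genistein arrays. No genistein array reached any control array, and the log2 difference of -1.12 ± 0.15 (SE; limma adjusted p = 0.00283) corresponds to 2.17-fold less signal. Both dexamethasone groups stood above the vehicle arrays on this probe, where Nfil3 averaged 0.97 ± 0.22 (SD, n = 4) in controls and 0.86 ± 0.10 (SD, n = 4) after genistein. The other Nfil3 probe, also well detected, gave -0.16 and did not pass, and the mean of both probes was -0.64. Klf15, a Krüppel-like factor that drives amino acid and lipid catabolism, had the same order, with 4.42, 4.58, 4.34 and 3.78 on the control arrays, 3.46, 3.26, 3.56 and 3.29 on the genistein arrays, and vehicle means of 1.86 and 1.32. Its groups did not overlap, with a difference of -0.89 ± 0.25 (SE; limma adjusted p = 0.022), but the call was lost on leaving out control array 1 (-0.84), control array 2 (-0.78), control array 3 (-0.87) or genistein array 2 (-0.84), and its dimmer probe gave 0.28 and did not pass.

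Cebpb, a leucine zipper factor needed for the decidual reaction of the stroma, went the other way. It read 0.27, 0.36, 0.03 and 0.06 on the control arrays and 0.55, 1.30, 0.89 and 0.81 on the genistein arrays, a separation of 0.70 ± 0.18 (SE; limma adjusted p = 0.0151). On the vehicle arrays Cebpb averaged 0.16 in both groups, near the control dexamethasone mean of 0.18. Klf13, a relative of Klf15, rose by 0.56 ± 0.16 (SE; limma adjusted p = 0.0226), a call lost without control array 1 (0.55), control array 3 (0.51), control array 4 (0.49) or genistein array 3 (0.51).

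Promoter sequences of 3 of the genes are printed to show what letters known from hormone response stand there, 250 bases up to the start site, from RefSeq on build GRCm38.p6. The motifs searched on both strands were the arm TGTTCT of the glucocorticoid response element, the full palindrome in which that arm follows its reverse complement after 3 bases, the AP-1 site TGANTCA, and the palindromic estrogen response element, in which TGACC follows its reverse complement after 3 bases. The arm overlaps the palindrome. Capitals mark the palindrome in Sgk1 (chr10:21993640-21993889, plus strand, 1 of 6 Sgk1 promoters in the table, picked because it holds the palindrome). They mark the arm followed by the AP-1 site in Sprr2e (chr3:92351893-92352142, plus strand), while Nfil3 (chr13:52981040-52981289, minus strand) holds none of these letters in this window.
Sgk1: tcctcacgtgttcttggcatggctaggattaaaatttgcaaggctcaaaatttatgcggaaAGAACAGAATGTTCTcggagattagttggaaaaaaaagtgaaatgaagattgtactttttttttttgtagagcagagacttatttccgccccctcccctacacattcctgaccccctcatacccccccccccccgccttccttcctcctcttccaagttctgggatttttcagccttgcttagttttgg
Nfil3: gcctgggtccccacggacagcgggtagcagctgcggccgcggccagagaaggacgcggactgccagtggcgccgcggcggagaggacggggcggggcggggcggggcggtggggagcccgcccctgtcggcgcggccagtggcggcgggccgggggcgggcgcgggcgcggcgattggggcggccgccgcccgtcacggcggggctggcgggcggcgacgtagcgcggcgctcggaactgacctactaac
Sprr2e: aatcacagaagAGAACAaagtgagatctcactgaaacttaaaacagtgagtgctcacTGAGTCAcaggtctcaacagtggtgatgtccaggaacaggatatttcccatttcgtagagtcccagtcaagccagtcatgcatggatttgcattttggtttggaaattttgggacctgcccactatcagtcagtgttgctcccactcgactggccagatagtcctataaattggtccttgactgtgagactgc
Over 32851 promoters of this length, the palindrome was found in 3, the arm in 16.1%, the AP-1 letters in 6.75% and the estrogen response element in 0.0639%. Among well-detected genes with a promoter in the table, the arm stood before 13.2% of 1120 higher genes, 12% of 701 lower genes and 12.9% of 6584 genes that did not pass, and the AP-1 letters before 6.07%, 3.99% and 5.51%. The palindrome stood before 0 higher genes, 0 lower genes and 1 gene that did not pass, and the estrogen response element before 0 genes of each set. A match in these letters is a description of the sequence only.

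Genes known to respond to estrogen in the uterus were called at about the background rate. Of 34 well-detected members 6 rose and 1 fell (20.6% against 21.3% of all well-detected genes), with a median log2 difference of 0.17. Wnt4, a secreted signal needed for uterine development and decidualization, read -1.35, -1.39, -1.13 and -0.58 on the control arrays and 0.29, 0.44, 0.22 and -0.12 on the genistein arrays. All genistein arrays exceeded all control arrays, by 1.32 ± 0.22 (SE; limma adjusted p = 0.00357), or 2.5-fold. Under vehicle Wnt4 averaged 0.75 ± 0.27 (SD, n = 4) in controls and 0.80 ± 0.32 (SD, n = 4) after genistein, so the control dexamethasone arrays held the lowest mean of the 4 groups, -1.11 ± 0.37 (SD, n = 4). Sprr2e, a small proline-rich protein of the uterine epithelium, read -3.06, -2.13, -2.11 and -2.37 on the control arrays and -1.09, -0.69, -0.74 and -1.23 on the genistein arrays. The groups were separate, at 1.48 ± 0.30 (SE; limma adjusted p = 0.00668), and vehicle means of -1.30 in controls and -0.81 after genistein lay above the control dexamethasone mean of -2.42. Ramp3, a partner of the adrenomedullin receptor, rose by 1.01 ± 0.24 (SE; limma adjusted p = 0.0128), from 0.44 to 1.34 on the control arrays to 1.79 to 2.39 on the genistein arrays.

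Developmental signalling pathways held changes in both directions. In the Wnt pathway 3 of 42 well-detected genes rose and 4 fell (16.7%), with a median of -0.17. Besides the ligand Wnt4, the receptor gene Fzd2 rose, by 0.91 ± 0.23 (SE; limma adjusted p = 0.0152), but the other well-detected Fzd2 probe gave 0.03 and did not pass, and the mean of both, 0.47, did not pass either. Axin2, an inhibitor that is itself a standard target of the pathway, read 1.95, 2.08, 2.39 and 2.49 on the control arrays and 0.79, 1.22, 0.70 and 1.21 on the genistein arrays. The groups did not overlap, at -1.25 ± 0.33 (SE; limma adjusted p = 0.0176), and the call was lost without genistein array 3, at -1.16. Lgr4, a receptor for R-spondins, fell by 0.80 on the log2 scale, and of its other probes 1 also passed, at -0.64, and 1 did not, at 0.28, with the mean of probes at -0.39, not passing.

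In the TGF-beta and BMP pathway 7 of 41 well-detected genes rose and 3 fell (24.4%), with a median of -0.04. The 2 inhibitory SMAD genes went opposite ways. Smad6, which blocks mainly BMP signals, read -0.39, -0.06, -0.30 and -0.35 on the control arrays and 0.62, 1.32, 0.58 and 0.44 on the genistein arrays, a rise of 1.02 ± 0.23 (SE; limma adjusted p = 0.00995). Smad7, which blocks mainly TGF-beta signals, read 1.72, 1.72, 1.85 and 1.79 on the control arrays and 0.86, 0.31, 0.05 and 0.42 on the genistein arrays. That difference of -1.36 ± 0.35 (SE; limma adjusted p = 0.0172) was lost as a call without genistein array 3, at -1.24. Fstl3, a secreted trap for activin, rose by 1.36 ± 0.31 (SE; limma adjusted p = 0.00995).

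In the Notch pathway 0 of 18 well-detected genes rose by limma, with 0 higher at an unadjusted p under 0.05 as well, and 3 fell (16.7% against 21.3%). Rbpj, the DNA-binding partner through which all Notch receptors act, read 0.72, 0.74, 0.80 and 0.96 on the control arrays and -0.05, -0.07, -0.50 and -0.37 on the genistein arrays. The arrays separated by -1.05 ± 0.19 (SE; limma adjusted p = 0.00416). In the insulin and IGF pathway 3 of 35 well-detected genes rose and 5 fell (22.9%), with a median of -0.22. Igf2r, which clears IGF2, fell by 0.73 ± 0.19 (SE; limma adjusted p = 0.018) on the log2 scale. Akt2, a kinase of the insulin response, rose by 0.68 ± 0.17 (SE; limma adjusted p = 0.0143), and Sesn2, a stress-induced inhibitor of mTORC1, by 0.69 ± 0.16 (SE; limma adjusted p = 0.0107).

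**Figure D2:**
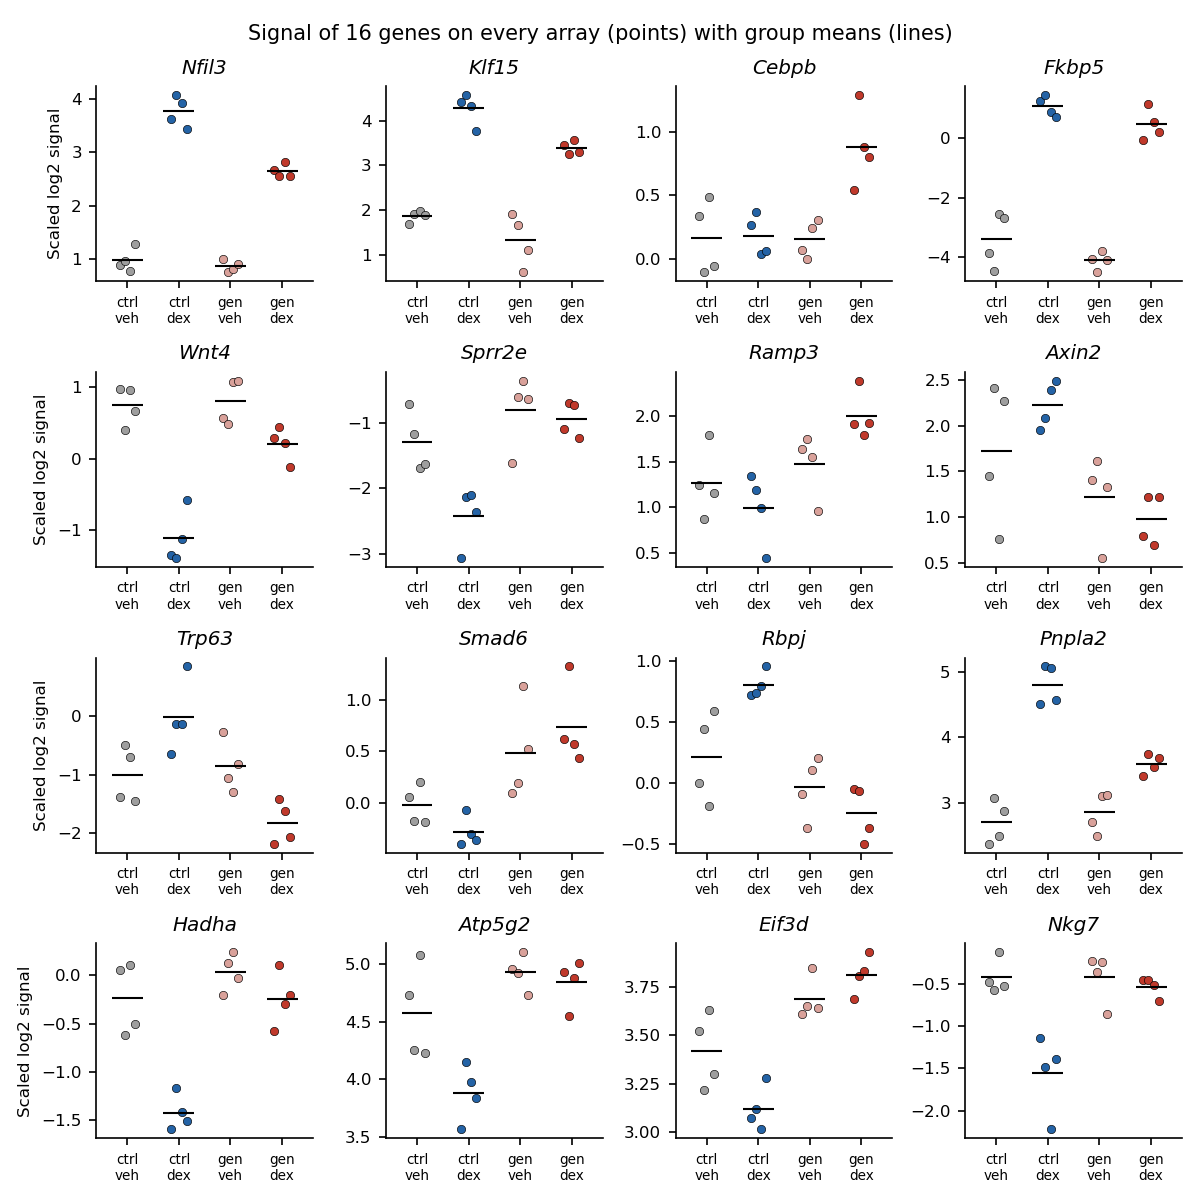
Scaled log2 signal (vertical axes) of 16 named genes on every array (points) with group means (lines) for the vehicle and dexamethasone arrays of controls and then of genistein-treated mice. Nfil3 and Klf15 were above both vehicle groups in both dexamethasone groups, and for Wnt4 the control dexamethasone arrays lay below the other 3 groups.

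Markers of uterine epithelium, smooth muscle and stroma gave few calls, and those of endothelium were called at about the background rate. None of 35 well-detected genes of the uterine epithelium passed limma, with 2 at an unadjusted p under 0.05, and their median log2 difference was 0.04. Of 27 smooth muscle genes 2 rose and 0 fell (7.41%; 2 were lower at an unadjusted p under 0.05), and of 31 stromal genes 3 rose and 1 fell (12.9%). Of 36 genes of the endothelium and angiogenesis 7 rose and 1 fell (22.2%), with a median of 0.21. Egfl7, a secreted factor of endothelial cells, rose by 0.96 ± 0.20 (SE; limma adjusted p = 0.00796), with 1.81 to 2.45 on the control arrays and 2.96 to 3.42 on the genistein arrays. The endothelial genes Pecam1, Cdh5 and Kdr, named here as defining markers, did not pass, at 0.22, 0.03 and -0.55.

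Genes of basal and squamous epithelium, a cell type of the cervix and vagina rather than of the uterine body, fell in 3 of 17 cases and rose in 1 (23.5%), with a median of -0.05 that moved to 0.21 without control array 4 and to 0.16 with slide as a fixed term. Trp63, the transcription factor that defines basal epithelium, read -0.65, -0.13, -0.13 and 0.85 on the control arrays and -2.18, -1.41, -1.62 and -2.06 on the genistein arrays. Every genistein array was below every control array, at -1.80 ± 0.33 (SE; limma adjusted p = 0.00444), and the vehicle means lay between, at -1.01 in controls and -0.86 after genistein. Col17a1, a collagen of hemidesmosomes, differed by -2.09 ± 0.55 (SE; limma adjusted p = 0.0182), but not without control array 4 (-1.84; adjusted p = 0.0532) or genistein array 4 (-1.69; adjusted p = 0.0504). Calml3, a calmodulin-like protein of squamous cells, differed by -1.69 ± 0.46 (SE; limma adjusted p = 0.0216) and was likewise lost without control array 4 (-1.32) or genistein array 4 (-1.52). The keratin genes of the same cells did not pass, at -1.25 for Krt5, -0.51 for Krt14 and -0.89 for Krt15. Krt5 was highest on control array 4, at 3.13, and lowest on genistein array 4, at -1.14, so single arrays differed in these markers, and their part in the falls was not tested.

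Adipocyte genes moved with single arrays as well. Of 25 well-detected members 0 rose by limma, with 0 higher at an unadjusted p under 0.05, and 3 fell (12%), with a median log2 difference of -0.63 and 22 members below 0. Relative to the mean of the 8 arrays, their median was -0.71, 1.19, 0.91 and 0.12 on control arrays 1 to 4 and -1.31, 0.10, 0.13 and 0.02 on genistein arrays 1 to 4. Control arrays 2 and 3 were highest and genistein array 1 lowest, and the groups overlapped. Adipoq, the adipocyte hormone adiponectin, ranged from -0.57 to 3.75 on the control arrays and from -1.45 to 2.10 on the genistein arrays. Within slide 3 the median of the list was 0.76 and within slide 4 it was -1.23, and without control arrays 2 and 3 it was 0.18. Pnpla2, the lipase that starts triglyceride breakdown and a glucocorticoid-responsive gene, read 4.50, 5.08, 5.05 and 4.56 on the control arrays and 3.40, 3.74, 3.55 and 3.67 on the genistein arrays. It differed by -1.21 ± 0.20 (SE; limma adjusted p = 0.00369) with no overlap, and by -0.94 (limma adjusted p = 0.0287) without control arrays 2 and 3. The other Pnpla2 probe, also well detected, gave -0.09 and did not pass, and the mean of both was -0.65. Acsl1, which activates fatty acids, differed by -1.49 but was at 0.15 within slide 3 and at -0.83, not passing, without control arrays 2 and 3. Acaca, which commits acetyl-CoA to fatty acid synthesis, differed by -0.98, with 3 dimmer probes at -0.76, 0.99 and 0.97, and the mean of its probes was at 0.055.

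**Figure D3:**
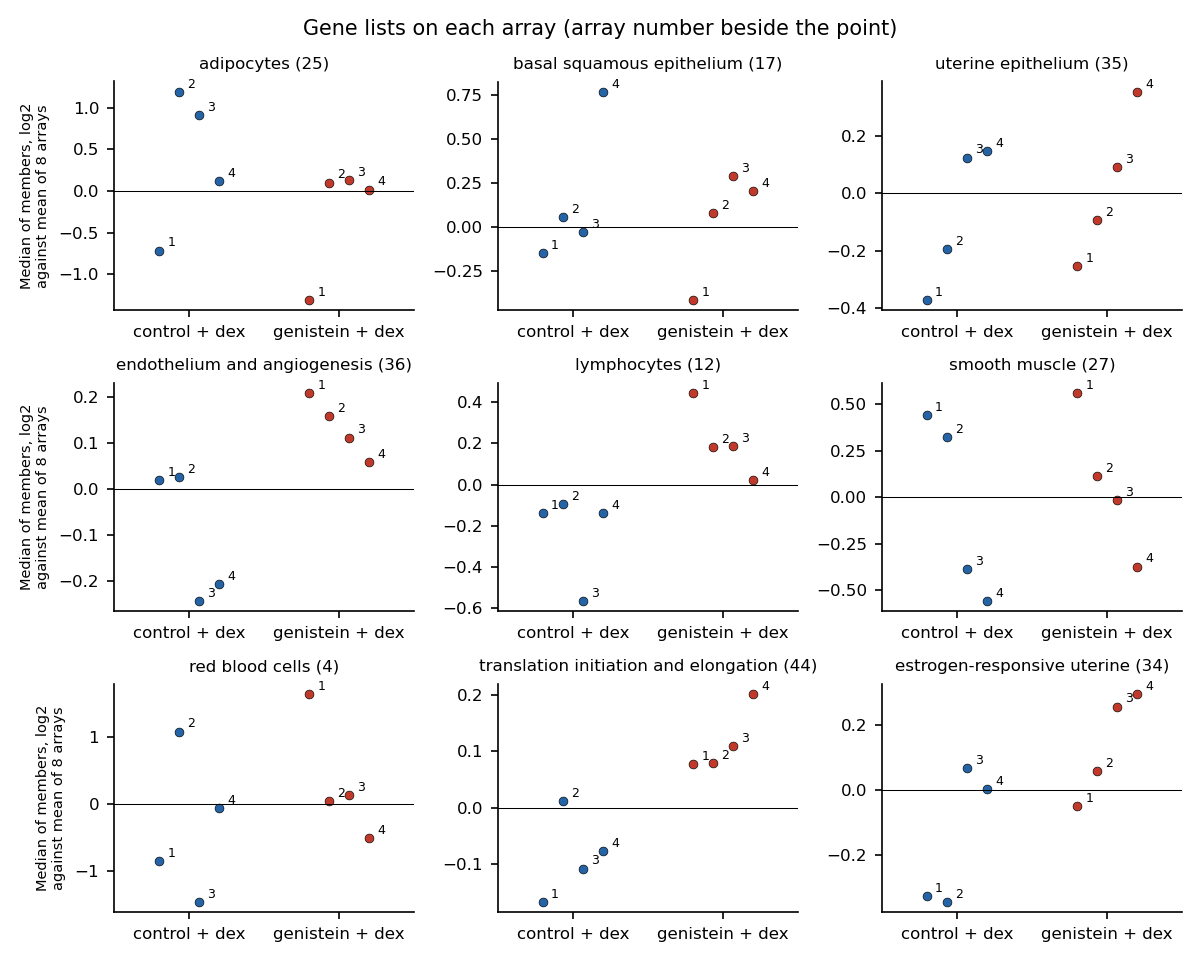
Median of the well-detected members of 9 gene lists on each array (points, with array numbers), on the log2 scale relative to the mean of the 8 arrays, for control dexamethasone in blue and genistein dexamethasone in red. The adipocyte genes ranged from -0.71 to 1.19 over the control arrays and from -1.31 to 0.13 over the genistein arrays.

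The median of the lymphocyte genes separated the groups, with calls near the background rate, and that of the red blood cell genes did not. Red blood cell genes ranged from -1.47 to 1.08 over the control arrays and from -0.51 to 1.64 over the genistein arrays, and 0 of 4 passed, with 0 at an unadjusted p under 0.05. Of 12 well-detected lymphocyte genes 3 rose and 0 fell (25% against 21.3% of all well-detected genes), the latter also at an unadjusted p under 0.05, with a median of 0.51 and 11 members above 0. Relative to the mean of the 8 arrays their median was -0.14, -0.09, -0.56 and -0.14 on control arrays 1 to 4 and 0.44, 0.18, 0.19 and 0.02 on genistein arrays 1 to 4, so the groups did not overlap. Medians of other lists, such as those of endothelium and of translation factors, did not overlap either. Over all 46 lymphocyte genes measured, dim ones included, 16 were higher and 1 lower, where 16.5% of all genes tested were higher and 6.39% lower. In the dimmest class of signal 23.6% of all genes were higher. The dim T cell receptor component Cd3d was higher by 1.05 ± 0.33 (SE; limma adjusted p = 0.0368). The dim components Cd3e, at 1.95 (limma adjusted p = 0.0661), and Cd3g, at 0.81 (limma adjusted p = 0.0825), did not pass. Whether more lymphocytes or the low signal of these probes went with this was not tested. Nkg7, a granule protein of natural killer and cytotoxic T cells, read -1.15, -1.48, -2.22 and -1.39 on the control arrays and -0.46, -0.46, -0.51 and -0.71 on the genistein arrays. The groups were separate, at 1.03 ± 0.21 (SE; limma adjusted p = 0.00731), and vehicle means were -0.42 in both groups. Of 29 macrophage and dendritic cell genes 4 rose and 2 fell (20.7%). C1qb, a chain of complement C1q made by macrophages, rose by 0.90 ± 0.24 (SE; limma adjusted p = 0.0188), a call lost without control array 1 (0.80), genistein array 3 (0.85) or genistein array 4 (0.75). C1ra, the protease of the same complex, fell by 0.93 ± 0.20 (SE; limma adjusted p = 0.00788) on the log2 scale. Among 21 inflammatory genes 2 rose and 1 fell (14.3%), and Rela, the p65 subunit of NF-kappa-B, rose by 0.71 ± 0.16 (SE; limma adjusted p = 0.00955), with a second probe at 0.95. The 40 interferon-stimulated genes held 4 rises and 0 falls (10%; 3 lower at an unadjusted p under 0.05), and their median was -0.58 within slide 3 and 0.81 within slide 4. Of the smaller marker lists, 2 of 12 mesothelial genes fell (16.7% called against 21.3%) and 1 of 2 eosinophil genes rose. Over all well-detected genes 12.8% were higher and 8.43% lower. No well-detected gene of neutrophils (3 genes), mast cells (5), ovary and oviduct (7), skeletal muscle (3) or nerve (4) passed limma, with 1 ovary and oviduct gene and 1 nerve gene at an unadjusted p under 0.05.

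Genes of energy metabolism moved in both directions. In fatty acid oxidation 4 of 26 well-detected genes rose and 4 fell (30.8% against 21.3%). Hadha, a subunit of the mitochondrial trifunctional protein, lay between -1.59 and -1.16 on the control arrays and read -0.57, 0.11, -0.30 and -0.21 on the genistein arrays, with no overlap. The difference was 1.17 ± 0.20 (SE; limma adjusted p = 0.00358), and vehicle means of -0.24 and 0.04 lay near the genistein dexamethasone mean of -0.24. Acadvl and Acadl, acyl-CoA dehydrogenases for very long and long chains, went opposite ways, by 0.68 ± 0.16 (SE; limma adjusted p = 0.0118) and -0.59 ± 0.13 (SE; limma adjusted p = 0.00863). In oxidative phosphorylation 9 of 74 genes rose and 4 fell (17.6%), with a median of 0.15. Atp5g2, a ring subunit of ATP synthase, rose by 0.96 ± 0.20 (SE; limma adjusted p = 0.00668), from 3.56 to 4.15 on the control arrays to 4.55 to 5.01 on the genistein arrays, and Cyc1, a subunit of complex III, rose by 0.71. In glycolysis and glucose uptake 4 of 27 rose and 1 fell (18.5%), and Eno3, an enolase, rose by 0.80 ± 0.17 (SE; limma adjusted p = 0.00822).

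Genes of protein synthesis and breakdown were called near or below the background rates of 12.8% higher and 8.43% lower, except for translation factors. Of 44 translation initiation and elongation genes 10 rose and 1 fell (25% against 21.3%), with a median of 0.19. Eif3d, a subunit of the initiation factor that recruits messenger RNA, read 3.07, 3.12, 3.01 and 3.28 on the control arrays and 3.68, 3.80, 3.83 and 3.93 on the genistein arrays. It rose by 0.69 ± 0.12 (SE; limma adjusted p = 0.00415) with no overlap, and Eif1, which guards start codon choice, rose by 0.89 ± 0.17 (SE; limma adjusted p = 0.00528). Of 74 cytosolic ribosomal protein genes 6 rose and 1 fell (9.46%), and of 74 mitochondrial ones 8 rose and 2 fell (13.5%). In the proteasome 5 of 36 rose and 1 fell (16.7%), with a median of 0.21. Psmb6, a catalytic subunit, rose by 0.90 ± 0.19 (SE; limma adjusted p = 0.00757) and Psme3, an activator cap, by 0.96 ± 0.20 (SE; limma adjusted p = 0.00723). The median of the cytosolic ribosomal list was 0.19 and moved to -0.01 with cyclic loess.

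In the list of DNA methylation and chromatin genes 8 of 64 rose and 7 fell (23.4%). Mbd3, which belongs to the NuRD repressor complex, read 0.26, 0.32, 0.12 and 0.49 on the control arrays and 1.10, 1.13, 1.17 and 1.16 on the genistein arrays. The groups were far apart for their spread, at 0.84 ± 0.15 (SE; limma adjusted p = 0.00415). Kat2a, a histone acetyltransferase, rose by 0.85 ± 0.15 (SE; limma adjusted p = 0.00385). Of 20 histone genes 4 rose and 0 fell (20%), with 0 lower at an unadjusted p under 0.05, and a median of 0.39. Of 54 splicing and RNA processing genes 6 rose and 4 fell (18.5%). In autophagy and lysosome 7 of 47 rose and 2 fell (19.1%), with Atg4d, a protease that processes LC3 relatives, at 0.71 ± 0.13 (SE; limma adjusted p = 0.00415) and 1.09 on a second probe, and Ulk2, a kinase that starts autophagy, at -0.90 ± 0.21 (SE; limma adjusted p = 0.0117).

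Genes of cell death moved both ways. Of 33 apoptosis genes 3 rose and 6 fell (27.3%), although the median was 0.12. Bcl2l1, whose main product Bcl-xL protects cells from death, read 2.13, 2.22, 2.24 and 2.10 on the control arrays and 1.07, 1.28, 1.29 and 1.40 on the genistein arrays. The arrays did not overlap, at -0.91 ± 0.17 (SE; limma adjusted p = 0.00488), and both groups lay above their vehicle means of 0.15 in each. Its 2 dim probes gave 0.11 and 0.14 and did not pass. Bmf, which promotes death, fell by 0.75 ± 0.14 (SE; limma adjusted p = 0.00434) on the log2 scale, while of its dim probes 1 passed in the opposite direction, at 0.80, and the other did not pass, at -0.23. Of 25 immediate early genes 0 rose by limma (4 at an unadjusted p under 0.05) and 3 fell (12%). Fosl2, an AP-1 subunit, read 1.10, 1.32, 1.21 and 1.10 on the control arrays and 0.51, 0.81, 0.49 and 0.70 on the genistein arrays, a separation of -0.56 ± 0.11 (SE; limma adjusted p = 0.00661), and Maff, a small Maf factor, fell by 0.96 ± 0.22 (SE; limma adjusted p = 0.0101).

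Matrix genes were called near the background rate. Of 40 genes of collagens and fibrillar matrix 6 rose and 3 fell (22.5%), and of 32 matrix proteases and inhibitors 6 rose and 1 fell (21.9%). Col4a4, a basement membrane collagen, read -1.27, -0.99, -1.03 and -1.06 on the control arrays and -0.64, 0.09, 0.04 and 0.40 on the genistein arrays. It rose by 1.06 ± 0.24 (SE; limma adjusted p = 0.0104), with no overlap. Fbn1, the main protein of microfibrils, fell by 0.72 ± 0.18 (SE; limma adjusted p = 0.0158) on the log2 scale.

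The remaining pathway lists were called below the background rate of 21.3%, with implantation genes near it. Of 33 genes of the unfolded protein response 1 rose and 3 fell (12.1%), and of 32 heat shock genes 2 rose (6.25%). Of 28 genes of cholesterol synthesis and uptake 2 rose and 1 fell (10.7%), and of 24 genes of the TCA cycle 2 rose (8.33%). Of 35 proliferation genes 1 rose and 1 fell (5.71%), with a median of 0.18 that moved to -0.03 without genistein array 4. Of 27 Hox and Müllerian patterning genes 3 fell (11.1%), and of 27 implantation genes 2 rose and 3 fell (18.5%). Of 18 genes of FGF and EGF signalling 2 fell (11.1%), and of 15 Hedgehog genes 1 rose (6.67%). Of 20 clock genes 2 rose and 1 fell (15%), and of 42 genes of metallothioneins and redox defence 4 rose and 3 fell (16.7%). Of 22 genes of antigen presentation 2 rose and 1 fell (13.6%), and of 28 complement and coagulation genes 2 rose and 2 fell (14.3%).

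**Figure D4:**
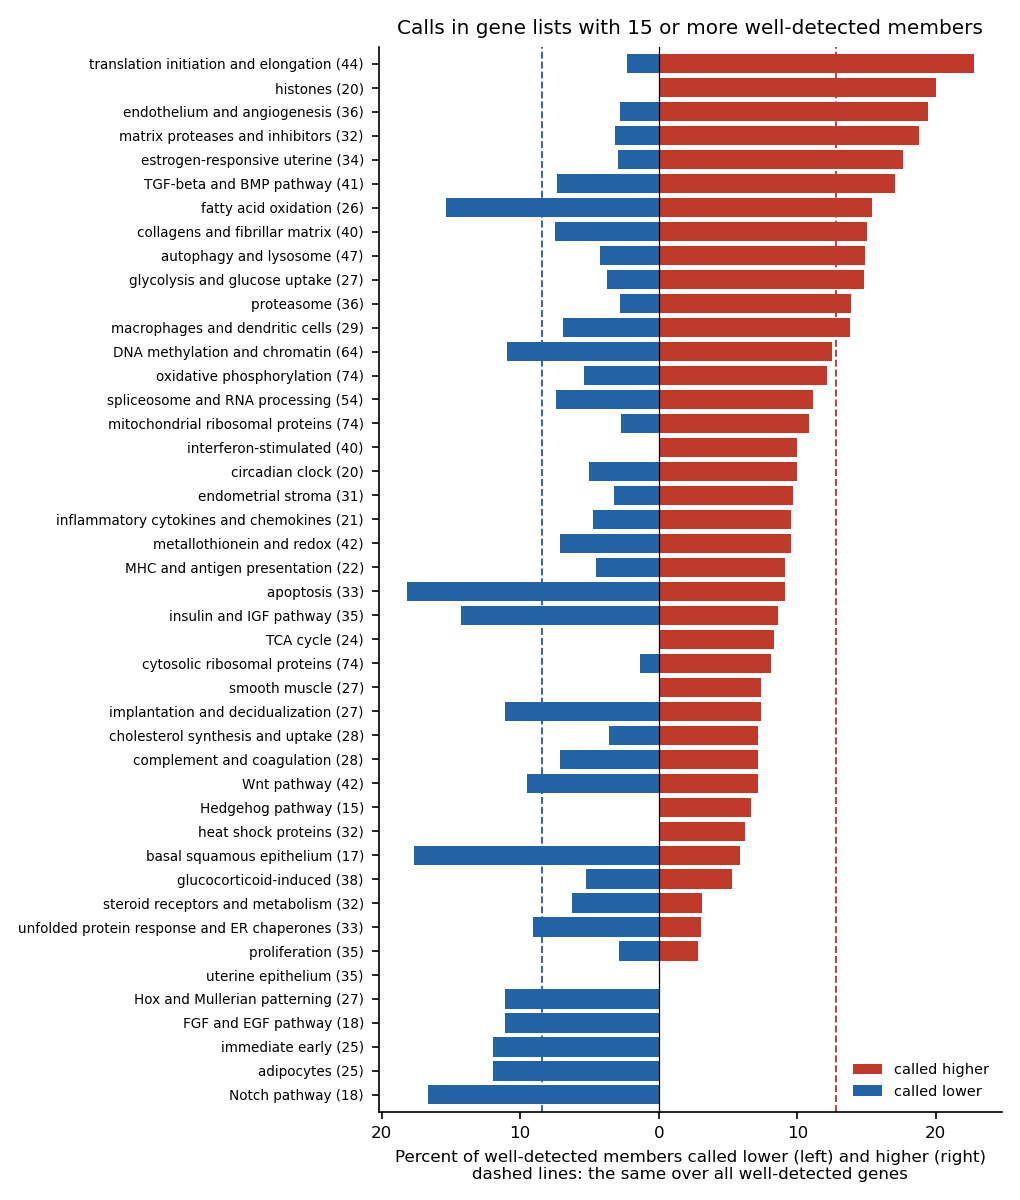
Percent of well-detected members called lower (left, blue) and higher (right, red) in each gene list with at least 15 such members, whose number follows the name, with dashed lines at 8.43% lower and 12.8% higher for all well-detected genes. Translation initiation and elongation had 10 of 44 genes higher, and the uterine epithelium had none of 35 in either direction.

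The same neonatal comparison on the 8 vehicle arrays, which share no array with the dexamethasone comparison, gave 1 call of 24651 genes (0.00406%), and 3427 at an unadjusted p under 0.05. Over the 1582 well-detected genes that rose under dexamethasone the median log2 difference was 0.63 there and 0.19 under vehicle, and for 1315 of them the vehicle difference was above 0, as it was for 7118 of all 12323. Over the 1039 that fell the medians were -0.72 and -0.15, with 782 below 0 under vehicle. Both sets were chosen by their difference under dexamethasone, so smaller medians under vehicle follow in part from that choice. The difference between the 2 genistein effects was tested gene by gene: limma called 0 of 24651, with a smallest adjusted p of 0.162 and 3830 genes at an unadjusted p under 0.05. A genistein effect that depends on dexamethasone was therefore not shown for any gene in this fit, whereas the fit with array weights called 96 and the fit without genistein array 3 called 1. For Wnt4 this difference of effects was 1.27, for Nfil3 -1.01, for Pnpla2 -1.36 and for Trp63 -1.95, each at an adjusted p of 0.162 by limma.

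Calls also varied with the genomic length of the gene in the RefSeq annotation, which was known for all 10472 well-detected genes with a symbol. The 1365 higher genes had a median length of 13.5 kb, the 863 lower genes 35.3 kb, and the 8244 others 24.1 kb. In the shortest of 5 classes of length 20.7% of genes were higher and 4.63% lower, and in the longest 5.11% were higher and 12.4% lower. The median log2 difference ran from 0.21 in the shortest class to -0.11 in the longest under dexamethasone, and from 0.12 to -0.01 under vehicle. It ran from 0.17 to -0.18 within slide 3 and from 0.28 to -0.14 within slide 4. The longest class minus the shortest was 0.27, 0.08, 0.23 and 0.07 on control arrays 1 to 4 and -0.14, -0.09, -0.19 and -0.19 on genistein arrays 1 to 4. Each control array was above 0 and each genistein array below it, and the part of RNA quality or handling was not tested. The pattern kept its direction with quantile normalization (0.18 to -0.12), cyclic loess (0.16 to -0.14) and normexp background correction (0.17 to -0.10).

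**Figure D5:**
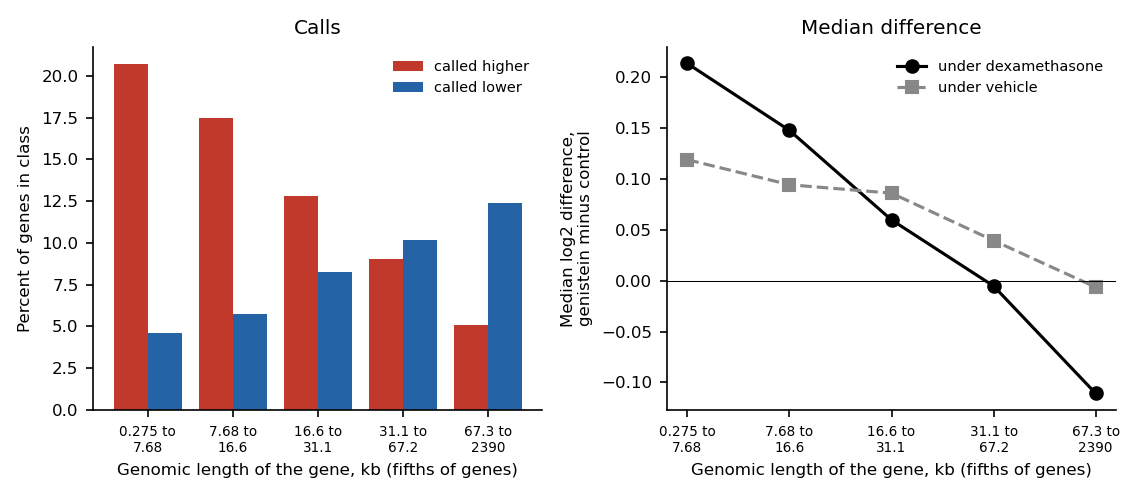
Left, percent of well-detected genes called higher (red) and lower (blue) in 5 classes of genomic length in kb; right, median log2 difference between genistein and control arrays in the same classes under dexamethasone (circles) and vehicle (squares). Under dexamethasone the median fell from 0.21 in the shortest class to -0.11 in the longest.

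The zinc finger genes named Zfp and a number gave 54 lower and 22 higher among 243 well-detected members, 22.2% lower against 8.43% of all well-detected genes, with a median of -0.12 under dexamethasone and -0.01 under vehicle. Zfp345 and Zfp936 were among the 12 largest falls of named, well-detected genes whose groups did not overlap. The median stayed between -0.15 and -0.08 with quantile, median, cyclic loess and normexp processing. The median length of these genes was 16.5 kb, shorter than that of the lower genes as a whole. Some genes of this family are similar copies in clusters, and whether probes share signal between members was not tested.

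Other probes of the same gene and single groups of arrays bounded what can be said of individual genes. Of 956 called well-detected genes with another probe, 278 had another probe called the same way, 67 had another called the opposite way, and 601 had all other probes on the same side of 0. Among genes named above, other probes that passed the same way were those of Atp5g2 (0.51), Nkg7 (0.76) and Ulk2 (-0.48), and other probes that did not pass were those of Akt2 (0.43), Col17a1 (-1.34), Fbn1 (-0.49), Fosl2 (-0.20), Acsl1 (-0.37), Dnal1 (-0.09), Esr1 (-0.15), Tsc22d3 (-0.42) and Fkbp5 (-0.25 and -0.66). Taking the mean of a gene's probes moved Pidd1 to 0.95, Khsrp to 1.00, Nrxn2 to 0.91, Nfil3 to -0.64, Pnpla2 to -0.65, Aff4 to -0.73 and Dnal1 to -1.03, which still passed, and ended the calls of Klf15 (-0.30), Fzd2 (0.47), Lgr4 (-0.39), Acsl1 (-0.93), Acaca (0.055), Gse1 (-0.66), Bcl2l1 (-0.22) and Bmf (-0.06). Leaving out control arrays 2 and 3 together, where adipocyte genes were highest, left 835 well-detected calls, 621 higher and 214 lower. It ended the calls of Pidd1 (2.09), Ngfr (1.18), Aff4 (-2.35), Dnal1 (-1.92), Klf15 (-0.71), Cebpb (0.72), Fzd2 (0.56), Axin2 (-1.24), Lgr4 (-0.78), Fstl3 (0.92), Smad7 (-1.35), Igf2r (-0.61), Sesn2 (0.61), Col17a1 (-2.21), Calml3 (-1.89), Acsl1 (-0.83), Acaca (-0.74), Egfl7 (0.81), Acadl (-0.57), Cyc1 (0.73), Fbn1 (-0.60), Ulk2 (-0.78), Fosl2 (-0.47) and Maff (-0.65). Normexp background correction ended those of Hsd17b10 (0.39), Klf13 (0.50), Akt2 (0.61), Calml3 (-1.21), Acadvl (0.59), Acsl1 (-1.14), Acaca (-0.60), Cyc1 (0.65) and Fbn1 (-0.54). Slide as a fixed term ended those of Srd5a1 (-0.96), Acsl1 (-1.25) and Acaca (-0.76). The fit without control arrays 2 and 3 also had fewer control arrays, which by itself makes a call harder to reach. There the estimates of Aff4, Cebpb, Col17a1, Calml3, Smad7 and Axin2 changed little or grew, while others, such as those of Ngfr, Fstl3 and Acsl1, shrank.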

How the data were processed

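Uterine RNA was labelled with Cy3 and hybridised to 16 one-colour Agilent mouse arrays, 4 for each of 4 groups. The deposited files hold the authors' scanner output as background-subtracted spot intensity, extracted with Feature Extraction 12.0.0.7 per the file headers and version 9.5 per the submitters' processing notes; the authors' deposited value table holds the same intensity values. Each array has 45018 spots, of which 1639 are controls.

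Here log2 of the deposited intensity was taken and the 75th percentile of each array subtracted. Outlier spots were left out and spots of a probe averaged, giving 41174 probes, of which 807 with missing values were dropped. A probe had to be well above background on 4 or more of the 16 arrays, and the brightest such probe stood for its gene. RefSeq names were updated for 28223 of 29245 probes with such an accession.

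Group means over all 16 arrays were fitted with limma 3.58.1 in R 4.3.3, with Benjamini-Hochberg adjustment over 24651 genes. The fit was tested on simulated data. The number of arrays limits the precision. Genes were named from the 12 largest rises and falls without overlap, up to 4 called members of each of 53 lists and a fixed set of receptors, enzymes and targets; the selection printed left out genes whose calls were lost in many alternatives, which was decided after their values were seen, and defining markers were added. The comparison, members and lists were chosen with earlier results of these data known. Alternatives covered scaling, background correction, filters, probes, slide, replicate number and single arrays. Normexp used median signals. Leaving out control arrays 2 and 3 was chosen after seeing the data. Array probe sequences and coordinates were not used here.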

Additional observations from a re-analysis of the deposited data

Results flagged for a closer look

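Single arrays stood apart from the other 3 of their group in 6 of 146 gene and group combinations and in 6 of 96 list and group combinations, by the gap to the nearest array over the range of the group. Chance gives about 1 in 20 by this measure. Tsc22d3 was high on control array 2 (5.54 against 5.00 for the nearest; ratio 0.945), and so was Acadvl (3.36 against 3.09; ratio 0.857). Igf2r and Ulk2 were low on control array 4 (2.27 against 2.67, ratio 0.874, and 0.23 against 0.73, ratio 0.938). Aff4 was low on genistein array 3 (-2.79 against -0.64; ratio 0.91), and Samd1 on genistein array 2 (-0.69 against -0.13; ratio 0.885).

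Among lists, adipocyte genes were low on genistein array 1 (median -1.31 against 0.02 for the nearest; ratio 0.921) and mitochondrial ribosomal genes on genistein array 2 (-0.29 against 0.10; ratio 0.927). Control array 3 was low for lymphocyte genes (-0.56 against -0.14; ratio 0.902) and for ovary and oviduct genes (-0.10 against 0.10; ratio 0.878), and high for DNA methylation and chromatin genes (0.08 against -0.05; ratio 0.9). Glycolysis and glucose uptake genes were high on control array 2 (0.06 against -0.08; ratio 0.942).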

How the results depend on the processing

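Of 64 named genes that passed, 31 kept their call in all 22 alternatives and 28 lost it in 1 to 3. The genes printed left out those whose calls were lost in many alternatives, so these counts follow in part from the selection. Acaca turned to 0.055 with the mean of its probes. Normexp background correction gave 3302 calls over all genes (2695 higher, 607 lower) and 1463 among well-detected genes (857 higher, 606 lower). Array weights gave 11033 (7402 higher, 3631 lower) and 5191 (3059 higher, 2132 lower), and 96 calls for the difference of the genistein effects; the highest weight was 6.195, on genistein array 3. Lower calls over all genes were 2385 with quantile normalization, 2695 with cyclic loess and 2907 with slide as a fixed term. Without control arrays 2 and 3, an alternative chosen after seeing the data, 2394 genes passed (2078 higher, 316 lower), and 835 well-detected ones (621 higher, 214 lower). At least 1.5-fold left 1688 well-detected calls (938 higher). Counting genes above background on all 8 arrays, a larger set that also holds dim genes, gave 4220 (2820 higher).

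Leaving out 1 array in turn gave 3293 to 5268 calls over all genes (2523 to 3829 higher, 730 to 1671 lower) and 1398 to 2400 among well-detected genes (891 to 1480 higher, 503 to 1085 lower), with 0 to 1 for the difference of effects. Over all genes the total fell by more than 1.5 times without control array 3 (3379), control array 4 (3531) or genistein array 3 (3293), and lower calls also without genistein array 2 (856) or genistein array 4 (997). The cause was not tested.

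The fit with the replicate number as a block gave 5799 calls. Deviations of same-numbered arrays correlated at 0.1491, 0.3568, 0.06554 and 0.1686. The labels do not say what a number marks and 1 of these was near 0, so the numbers were not taken as pairs.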
